A study of Mus musculus with 12 samples.

Results

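Protocadherins form the largest branch of the cadherin superfamily of cell adhesion proteins. On the autosomes of the array, 44 probes were named for 29 protocadherin genes, out of 40666 autosomal probes and 19944 named autosomal genes. All probes with a gene name starting with Pcdh were taken, apart from the 5 on the X chromosome. Of these genes, 21 (25 probes) belonged to the cluster on chromosome 18 and 8 (19 probes) were dispersed. DNA copy number was measured by array-based comparative genomic hybridization, in which DNA of a tumor (Cy5, red) and of uninvolved liver taken far from it in the same animal (Cy3, green) compete for the same probes. All mice were Mdr2-KO on the FVB background and lacked the liver's phospholipid export pump, a defect that leads to chronic liver inflammation and then to hepatocellular carcinoma. The post-PHx group held 6 tumors (4 of males, 2 of females) of 9-month-old mice that had undergone 70% partial hepatectomy at the age of 3 or 6 months, an age the labels do not give per mouse. The spontaneous group held 6 tumors of untreated mice, 2 of 14-month-old males and 4 of 13-month-old females. Because age at collection differed between the groups, age and hepatectomy cannot be told apart. Values are log2 ratios of tumor over liver, centred on the median autosomal probe of each array.

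The clustered genes stand in tandem runs named alpha, beta and gamma. In the alpha and gamma runs, each variable first exon carries its own promoter and is spliced to constant exons shared by the run, while each beta gene is a single exon. Neurons switch on small, nearly random sets of these promoters with the help of CTCF and cohesin, and the resulting proteins bind like proteins on neighbouring cells, which gives each neuron a surface identity. The dispersed genes are single loci with separate roles in adhesion. A DNA copy number says nothing of expression, and these arrays hold no measure of whether any protocadherin was transcribed in the liver, nor of the cell types in the tissue.

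The array sampled the cluster unevenly. Its 25 probes lay at chr18:37285809-37881468 of the mm8 build, a span of 0.596 Mb. The beta run was covered by 21 probes for 19 genes. The alpha run had 2 probes, both named Pcdha1, and the gamma run 2 probes, both named Pcdhga1. RefSeq (GRCm38.p6) lists 14 alpha, 22 beta and 22 gamma genes. In that annotation the span of Pcdha1 holds the starts of the 13 other alpha genes and that of Pcdhga1 the starts of the 21 other gamma genes, so each name stands for its run. Among the dispersed genes, Pcdh1 and Pcdh12 lay on chromosome 18 just beyond the cluster, Pcdh21, Pcdh8 and Pcdh9 on chromosome 14, Pcdh10 and Pcdh18 on chromosome 3, and Pcdh15 on chromosome 10. No probe was named for Pcdh7, Pcdh17 or Pcdh20.

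Each array yielded 41245 to 42329 probes after 108 to 1218 outlier spots had been left out. Probe noise, taken from the interquartile range of log2 differences between neighbouring probes and scaled to an SD, ranged from 0.147 to 0.265. The arrays stood on 3 slides. Slide 1 held PHx1M to PHx4M, slide 3 held Spon1M to Spon4F, and slide 2 held PHx5M, PHx6F, Spon5F and Spon6F, so that only the last had both groups. Outlier spots removed Pcdhb22 from PHx3M and Pcdh10 from Spon3F.

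The cluster was clearly gained in 2 of the 12 tumors, PHx2F and Spon1M, and was broken at a different place in each. Its mean log2 ratio over probes was 0.49 in PHx2F (1.40-fold) and 0.75 in Spon1M (1.68-fold). Among the other post-PHx tumors it was -0.041 in PHx1M, -0.078 in PHx3M, -0.083 in PHx4M, 0.22 in PHx5M and -0.13 in PHx6F. Among the other spontaneous tumors it was 0.32 in Spon2M, -0.14 in Spon3F, 0.35 in Spon4F, -0.10 in Spon5F and -0.32 in Spon6F. The groups therefore overlapped over most of their range, with the highest and the lowest tumor both in the spontaneous group.

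**Figure D1:**
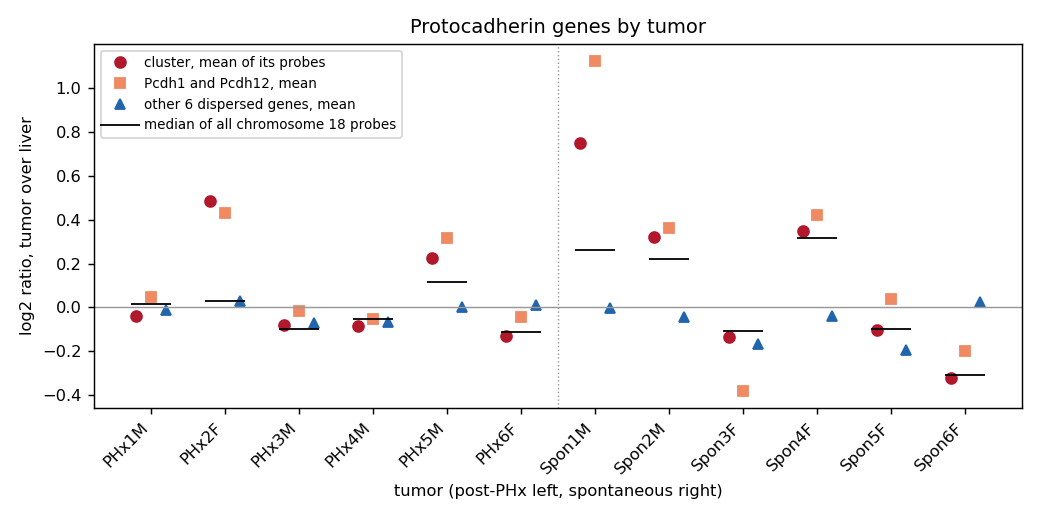
Mean log2 ratio of tumor over liver (vertical axis) in each of the 12 tumors (horizontal axis) for the cluster probes, for Pcdh1 and Pcdh12, and for the other 6 dispersed genes, with the median of all chromosome 18 probes as a bar. The cluster stood well above the chromosome's median in PHx2F and Spon1M only, and the 6 genes of other chromosomes stayed between -0.19 and 0.028.

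In the other 10 tumors the cluster followed the rest of its chromosome. Its mean there differed from the median of all chromosome 18 probes by between -0.056 (PHx1M) and 0.11 (PHx5M). The difference was 0.46 in PHx2F and 0.49 in Spon1M. Hence the 0.35 of Spon4F and the -0.32 of Spon6F were values shared with the whole chromosome, whose medians were 0.32 and -0.31. In Spon4F all 25 cluster probes were above 0, and in Spon6F 24 of 25 were below 0.

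To find gained and lost regions, an interval score weighted by the error of each probe was used, which marks runs of at least 2 probes whose fitted level passes 0.4 in either direction. A gene counted as called where at least 1 of its probes lay in such a region. In Spon1M, 21 of the 29 protocadherin genes lay in amplified regions, against a background of 5.92% of all named autosomal genes in that tumor. These were 19 cluster genes, Pcdh1 and Pcdh12. In PHx2F, 10 of 29 genes did, all in the cluster, against a background of 2.21%. No cluster gene lay in a deleted region in any tumor. In the 9 tumors other than PHx2F, Spon1M and Spon5F no protocadherin gene was called at all, with 0% (PHx5M and Spon4F) to 4.3% (PHx4M) of all genes in amplified regions and at most 2.52% (Spon3F) in deleted ones. Over all tumors, 31 of 346 pairs of a protocadherin gene and a tumor were amplified, or 8.96% against 1.63% for all genes. The genes of a cluster share their neighbours' copy number, so these 31 pairs came from 2 events on chromosome 18 and are not independent.

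In Spon1M the called gain began inside the cluster, between its alpha and beta probes. A single split of the 105 probes measured from 36 to 39 Mb of chromosome 18, placed to minimise the absolute deviation, fell between the second Pcdha1 probe and the Pcdhb1 probe, a stretch of 90360 bases with no probe (chr18:37301752-37392113, mm8). The median log2 ratio rose from 0.23 before it to 0.97 after it, and the split explained 46.5% of the absolute deviation. The 2 Pcdha1 probes read 0.18 and 0.17. The 5 genes from Pcdhb1 to Pcdhb5 read 0.79 to 0.92 (mean 0.87), and the 14 genes from Pcdhb9 to Pcdhga1 read 0.49 (Pcdhb15) to 1.16 (Pcdhb12), with a mean of 0.88. The alpha end was thus at the level of the 5 named genes before the cluster (Zmat2, Hars2, Hars, Dnd1 and Wdr55), which read 0.042 to 0.35. The fitted level there was 0.31, above the array's median, so the step was a rise between elevated levels. With a score threshold of 8 or a filter of 0.25, 22 of the 29 protocadherin genes were amplified in this tumor. None of the 13 other alpha genes had a probe of its own name, so the side of the step on which each lay cannot be read from the array.

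The gain in Spon1M ran far past the cluster. It was called as 3 pieces, chr18:37392113-37462393 (6 probes, mean 0.90), chr18:37526801-38080701 (26 probes, mean 0.95) and chr18:38089529-57499948 (238 probes, mean 0.76). The last piece covered 19.4 Mb and held Pcdh1, a protocadherin of epithelia, at 0.97 and Pcdh12, a protocadherin of endothelial cells, at 1.28 (1.96-fold and 2.42-fold). Just beyond the cluster, AK220466, Diap1, AK037478 and Hdac3 read 1.01 to 1.21. The breaks between the pieces were single probes that read low, Pcdhb8 at -0.96 and 4631403P03Rik at -1.61, both described below.

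**Figure D2:**
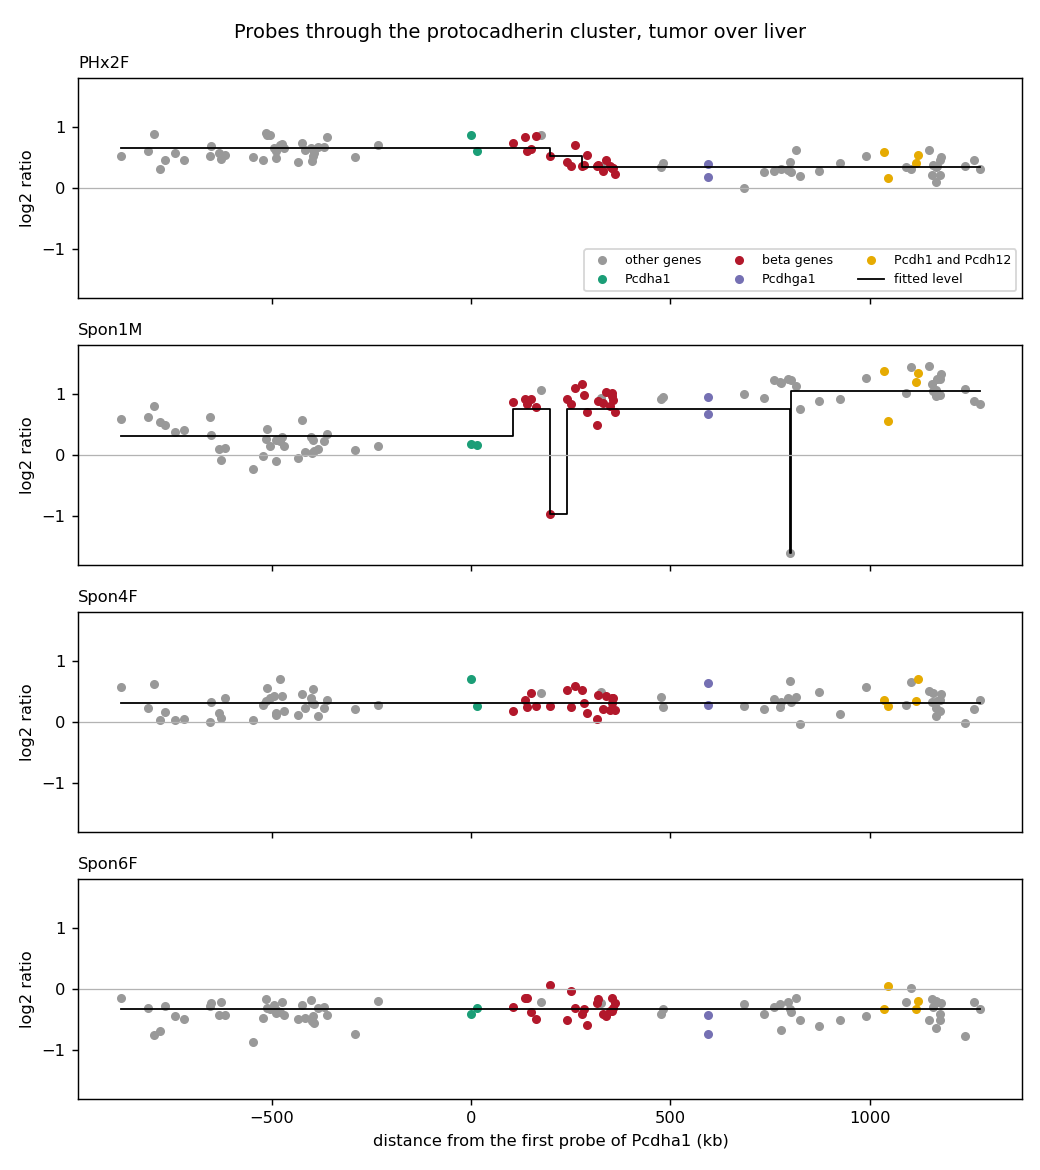
Log2 ratio of tumor over liver (vertical axis) of each probe against its distance in kb from the first Pcdha1 probe (horizontal axis) in 4 tumors, with protocadherin runs in colour and the fitted level as a line. In PHx2F the level fell inside the beta run from above to below the 0.4 limit, in Spon1M it rose after Pcdha1 with the Pcdhb8 probe at -0.96, and in Spon4F and Spon6F it was flat.

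In PHx2F a gain ended inside the cluster, so that the alpha end was the higher one. The called region covered chr18:31724440-37547498 (5.82 Mb, 172 probes, mean 0.63 or 1.54-fold) and ended at the Pcdhb11 probe. The single best split fell slightly earlier, between Pcdhb8 and Pcdhb9, where the median log2 ratio dropped from 0.64 to 0.36, and it explained 31.8% of the absolute deviation. Before it, the 7 genes from Pcdha1 to Pcdhb8 read 0.53 (Pcdhb8) to 0.85 (Pcdhb5), with a mean of 0.70 (1.63-fold). After it, the 14 genes from Pcdhb9 to Pcdhga1 read 0.24 (Pcdhb22) to 0.71 (Pcdhb11), with a mean of 0.39 (1.31-fold). The genes before the cluster read 0.45 (Wdr55) to 0.84 (Zmat2), and those after it 0.0031 (AK220466) to 0.44 (4631403P03Rik). The fitted level beyond Pcdhb11 was 0.34, still above the array's median, so the step was a fall between elevated levels and not a return to 0. Its exact place depended on the settings: it lay between Pcdhb10 and Pcdhb11 with normexp background correction, and with a score threshold of 8 the region ran on over 23 of the 29 genes.

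In the other 10 tumors no split of this window explained more than 5.60% of the absolute deviation, and the medians on the sides of the best split differed by at most 0.16 in size.

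**Figure D3:**
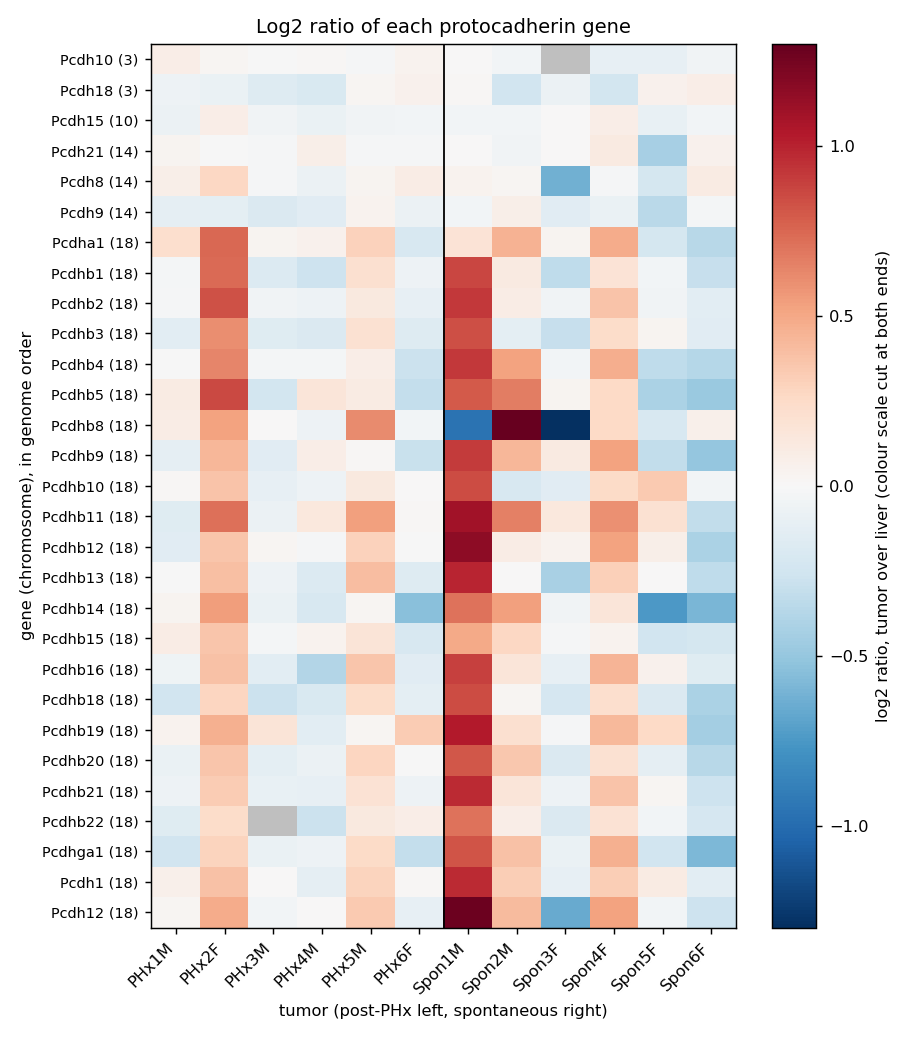
Log2 ratio of tumor over liver (colour) of the 29 protocadherin genes (rows, in genome order with the chromosome in parentheses) in the 12 tumors (columns), with missing values in grey. The cluster columns of PHx2F and Spon1M are red with a change of shade at different genes, and Pcdhb8 departs most from its neighbours in Spon1M, Spon2M and Spon3F.

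The spread across the tumors differed between genes of the cluster. The SD over the 12 tumors ranged from 0.23 to 0.81, with a median of 0.36. The narrowest were Pcdhb15 (0.23), Pcdhb22 (0.28) and Pcdhb10 (0.30), and the widest Pcdhb8 (0.81), Pcdhb14 (0.46) and Pcdhb5 (0.46). Pcdhb14 read 0.54 in PHx2F, 0.70 in Spon1M and 0.54 in Spon2M, and -0.54 in PHx6F, -0.74 in Spon5F and -0.60 in Spon6F. It was the lowest cluster gene in those last 3 tumors, all on slide 2, while PHx5M on the same slide read 0.027. Pcdhb5 ran the same way with 0.85, 0.79 and 0.67 in the high tumors and -0.31, -0.41 and -0.48 in the low ones. Pcdhb15 kept to a narrower range, from -0.24 in Spon5F to 0.49 in Spon1M.

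Probes of the same gene also differed. In Spon4F the first and second Pcdha1 probes read 0.71 and 0.26, and in PHx1M 0.46 and -0.011. The Pcdhga1 probes, which lie close together, read 0.28 and 0.64 in Spon4F and -0.34 and 0.19 in PHx4M. Their first probe was the lower one in all 12 tumors. Within the other runs, Pcdhb1 ranged from -0.27 (PHx4M) through a median of -0.042 to 0.74 (PHx2F) in the post-PHx group and from -0.33 (Spon3F) through 0.043 to 0.86 (Spon1M) in the spontaneous group. Pcdhb22, the last beta gene, ranged from -0.28 (PHx4M) to 0.24 (PHx2F) and from -0.22 (Spon6F) to 0.71 (Spon1M).

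On slide 3 the Pcdhb8 probe went against its neighbours in Spon1M, Spon2M and Spon3F, but not in Spon4F. It read -0.96 in Spon1M, 1.93 in Spon2M, -1.38 in Spon3F and 0.26 in Spon4F. In the other 8 tumors it read from -0.21 (Spon5F) to 0.62 (PHx5M). Among these it stood above Pcdhb5 and Pcdhb9 in PHx5M (0.11 and 0.011) and in Spon6F (0.066 beside -0.48 and -0.51). Both channels were examined as signal over the array's median. In the 8 tumors of slides 1 and 2, the liver signal was 0.48 to 0.70 and the tumor signal 0.51 to 0.78. In Spon1M the liver signal was 0.72 and the tumor signal 0.37. Spon2M had 0.22 in the liver and 0.85 in the tumor, Spon3F had 0.47 and 0.19, and Spon4F had 0.24 and 0.29. Thus the low signal was in the tumor of Spon1M and Spon3F, in the liver of Spon2M and in both tissues of Spon4F.

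**Figure D4:**
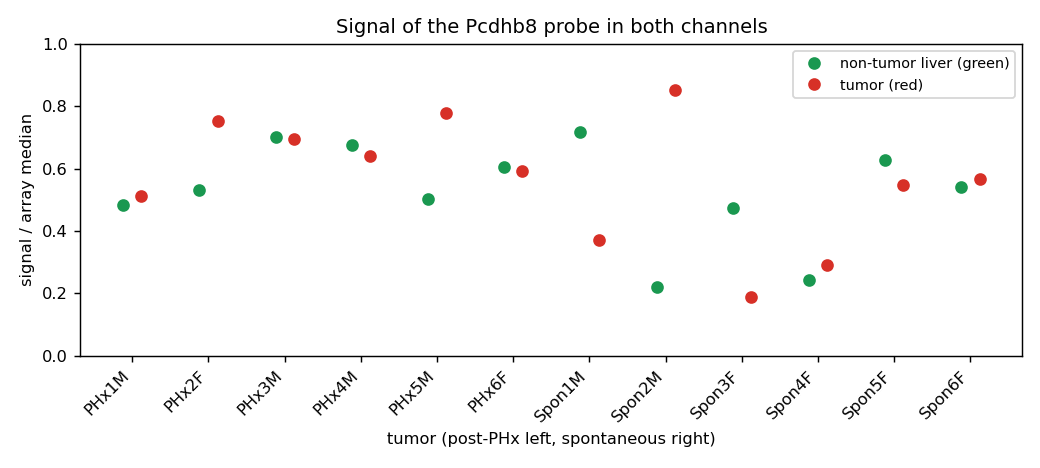
Signal of the Pcdhb8 probe over the array's median signal (vertical axis) in the non-tumor liver (green) and the tumor (red) of the 12 mice (horizontal axis). Low signals occurred on slide 3 (Spon1M to Spon4F), in the tumor, the liver or both.

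This pattern was not particular to Pcdhb8. On the autosomes, 377 probes read below -0.8 in Spon1M and in Spon3F and above 0.8 in Spon2M, and they lay on all 19 autosomes. No probe had the opposite signs in all 3. They made up 74.7% of the 505 probes below -0.8 in Spon1M, 45.4% of the 831 above 0.8 in Spon2M and 21.9% of the 1718 below -0.8 in Spon3F. Pcdhb8 was the only protocadherin probe among them. The probe of 4631403P03Rik read -1.61, 3.42 and -2.87 in these tumors. Slide 3 held spontaneous tumors only, and the cause was not tested. Without Pcdhb8, the cluster mean was 0.82 in Spon1M, 0.25 in Spon2M and -0.084 in Spon3F.

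The dispersed genes on chromosome 18 were highest in the tumors with the gained cluster, but did not share its sign in every tumor. In the post-PHx group Pcdh1 was highest in PHx2F (0.38) and PHx5M (0.29), followed by PHx1M (0.066), PHx6F (0.020), PHx3M (0.0041) and PHx4M (-0.12). Its spontaneous values were 0.97 in Spon1M, 0.32 in Spon2M, -0.10 in Spon3F, 0.32 in Spon4F, 0.11 in Spon5F and -0.13 in Spon6F. Pcdh12 ranged from -0.11 (PHx6F) to 0.48 (PHx2F) in the post-PHx group and from -0.66 (Spon3F) to 1.28 (Spon1M) in the spontaneous group. For both genes the highest tumor of each group was the tumor in which the cluster was gained. Pcdh1 was above 0 in PHx1M, PHx3M, PHx6F and Spon5F, where the cluster mean was below 0. The -0.66 of Spon3F rested on 1 of the 2 Pcdh12 probes, which read -1.49 while the other read 0.17. At the low probe the liver signal was 1.97 and the tumor signal 0.73 of the array's median.

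The 3 dispersed genes of chromosome 14 were lost in Spon5F. Their called region, chr14:6663640-123875911, covered the chromosome's probes from end to end (1540 probes, mean -0.49 or 0.714-fold). These 3 of 29 genes compare with a background of 5.7% of all genes in deleted regions in that tumor, and all 3 came from 1 event. Over all tumors, 3 of 346 pairs were deleted, or 0.867% against 0.7% for all genes. Pcdh21 (now Cdhr1), a cadherin of photoreceptors, read -0.43 (0.743-fold) in Spon5F and between -0.044 (Spon2M) and 0.11 (Spon4F) in the other 11 tumors. Its probes were -0.27 and -0.59. Pcdh9, a protocadherin of the nervous system with 7 probes, read -0.35 in Spon5F, where all 7 probes were below 0 (-0.54 to -0.12), and -0.19 (PHx3M) to 0.075 (Spon2M) elsewhere.

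Pcdh8, which acts at synapses, had 1 probe. It read -0.23 in Spon5F, but its lowest value was -0.62 in Spon3F, where the chromosome 14 median was -0.0030 and the probe lay in no called region. In the other 10 tumors it read -0.072 (PHx4M) to 0.27 (PHx2F). The chromosome 14 genes of Spon5F were thus 0.743-fold, 0.853-fold and 0.782-fold for Pcdh21, Pcdh8 and Pcdh9, all below 1.

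**Figure D5:**
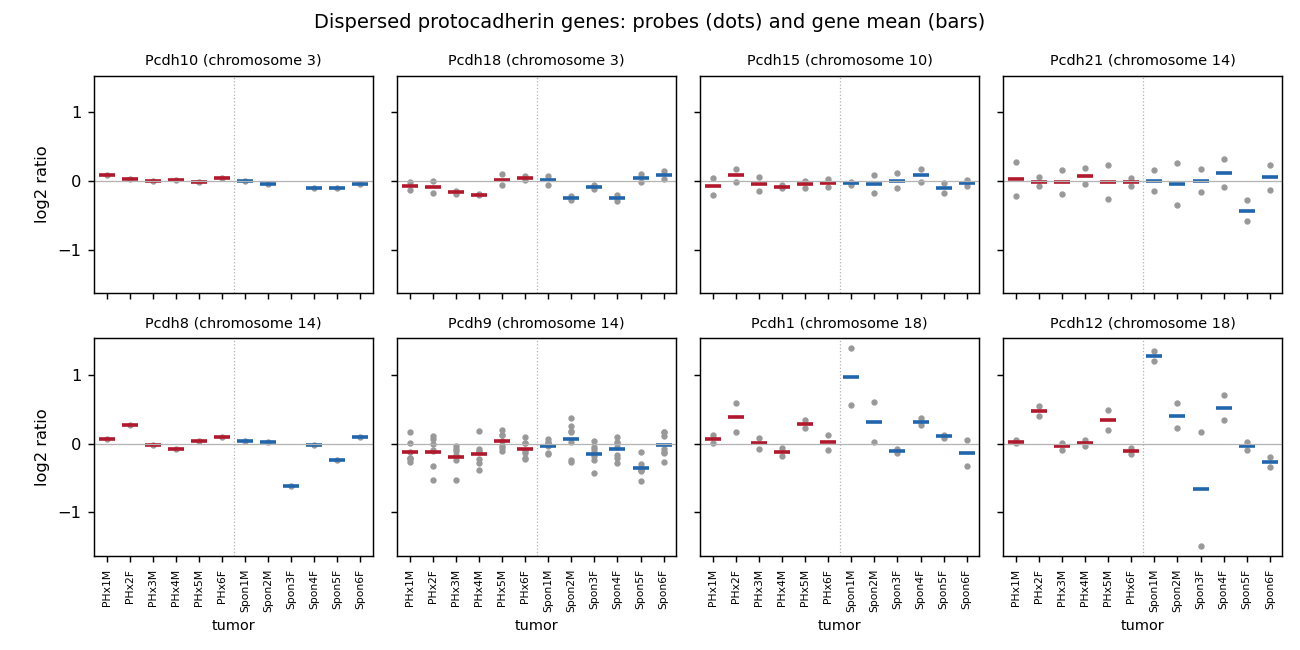
Log2 ratio of tumor over liver (vertical axis) of the 8 dispersed genes in the 12 tumors (horizontal axis), with a dot per probe and a bar for the gene's mean (red for post-PHx, blue for spontaneous). Pcdh1 and Pcdh12 were highest in Spon1M, Pcdh21 and Pcdh9 were lowest in Spon5F, and the means of Pcdh10, Pcdh18 and Pcdh15 stayed within -0.25 to 0.091.

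The dispersed genes on chromosomes 3 and 10 varied little. Pcdh10, a protocadherin of the brain, read -0.016 to 0.082 in the post-PHx tumors (median 0.022) and -0.11 to 0.0013 in 5 spontaneous tumors (median -0.044). Pcdh18 read -0.20 (PHx4M) to 0.051 (PHx6F) and -0.25 (Spon2M) to 0.091 (Spon6F). Pcdh15, which forms the tip links of hair cells in the inner ear, read -0.082 (PHx4M) to 0.082 (PHx2F) and -0.10 (Spon5F) to 0.084 (Spon4F). None of the 3 lay in a called region, and the SDs over tumors were 0.059 for Pcdh10, 0.12 for Pcdh18 and 0.058 for Pcdh15.

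The SD over tumors had a median of 0.36 for the cluster genes and of 0.13 for the 8 dispersed genes. The wide spread was not particular to the cluster, since the dispersed genes of the same chromosome had SDs of 0.31 (Pcdh1) and 0.49 (Pcdh12). The latter was wider than that of every cluster gene except Pcdhb8, but it included the Pcdh12 probe that read -1.49 in Spon3F. The cluster mean exceeded the dispersed mean by 0.048 ± 0.18 in the post-PHx tumors (SD, n = 6) and by 0.14 ± 0.26 in the spontaneous tumors (SD, n = 6), differences smaller than their spread. The difference was above 0 in 2 of 6 post-PHx and 5 of 6 spontaneous tumors, with extremes of -0.13 (PHx6F) and 0.36 (PHx2F) in the former and -0.29 (Spon6F) and 0.47 (Spon1M) in the latter. Without PHx2F the post-PHx difference was -0.014, so its sign rested on that tumor, and it was 0.029 without PHx5M and 0.083 without PHx6F. The spontaneous difference was 0.073 without Spon1M and 0.23 without Spon6F. Against the 6 dispersed genes of other chromosomes alone, it was 0.080 ± 0.22 and 0.21 ± 0.38 (SD, n = 6 each).

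The comparison of tumor with liver asked whether the mean log2 ratio of protocadherin genes in a group departed from 0. Tumor DNA was red and liver DNA green on every array. A gain or loss shared by a group therefore cannot be told apart here from a constant dye difference of a probe. With limma fitted over 19943 autosomal genes, none of the 29 protocadherin genes passed an adjusted p of 0.05 in the post-PHx group, against a background of 2.58% of all genes (515). The smallest adjusted p among them was 0.30, and 0 had an unadjusted p under 0.05. In the spontaneous group again none passed, against 4.25% (848), with a smallest adjusted p of 0.16, at Pcdhb11 (0.39 ± 0.16, SE, n = 6), which alone had an unadjusted p under 0.05. The fitted means of the cluster genes ran from -0.056 (Pcdhb18) to 0.19 (Pcdhb11) in the post-PHx group and from -0.048 (Pcdhb8) to 0.39 (Pcdhb11) in the spontaneous group. The median over the 29 genes was 0.057 in the post-PHx group and 0.096 in the spontaneous group, beside 0.0072 and -0.0064 over all genes. Without PHx2F the former was -0.021, and without Spon1M the latter was -0.015. With single probes fitted in place of genes, 1972 of 34872 probes passed in the spontaneous tumors in either direction. Those below liver made up 2.7% of the 34872. Of the 44 protocadherin probes, 2 (4.55%) passed, both below liver. The first was 1 of the 7 Pcdh9 probes (-0.24, adjusted p = 0.019). The second was 1 of the 2 Pcdh21 probes (-0.24, adjusted p = 0.041), which was below 0 in all 6 post-PHx tumors too, while the other Pcdh21 probe went the opposite way (0.15, adjusted p = 0.21) and the gene's mean was -0.048. The SEs of the cluster genes were 0.092 to 0.30.

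The comparison of the groups asked whether tumors that arose after hepatectomy differed from spontaneous ones at these genes. No gene of the array passed an adjusted p of 0.05 with limma (0%, with 848 of 19943 genes at an unadjusted p under 0.05), and none of the protocadherin genes had an unadjusted p under 0.05. The smallest adjusted p among them was 0.99. The cluster mean was 0.063 ± 0.24 in the post-PHx tumors and 0.14 ± 0.40 in the spontaneous tumors (SD, n = 6 each), a difference of -0.079. Within slide 2, where both groups stood, the post-PHx mean was 0.046 and the spontaneous mean -0.21 (n = 2 each), a difference of 0.26 in the opposite direction. The dispersed mean was 0.015 ± 0.077 and 0.0027 ± 0.18 (SD, n = 6 each), with a difference of 0.012 overall and 0.12 within slide 2.

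For single genes, fitted differences of post-PHx minus spontaneous ran from -0.21 ± 0.18 (Pcdhb16) to 0.24 ± 0.43 (Pcdhb8; SE). They were below 0 for 23 of 29 genes, with a median of -0.067. With the slide as a block the median was 0.24 and 27 of 29 genes were above 0, and without Spon1M it was 0.058 with 23 above 0. The direction of the difference between the groups therefore depended on the slide term and on Spon1M, and no direction can be given.

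Genes that act with protocadherins were examined as lists of 14 regulators of the cluster's expression, 12 of them on the array, and 20 partners of protocadherin proteins, 17 of them on the array. Here a gene that passed above 0 rose and one that passed below 0 fell, with the limit from the dyes given above. Of all genes, 1.52% rose and 1.06% fell in the post-PHx tumors over liver, and 2.18% rose and 2.08% fell in the spontaneous tumors. Of the regulators, 1 of 12 rose in the post-PHx tumors and 0 fell. This was Nipbl on chromosome 15, which loads cohesin (0.30 ± 0.072, SE, adjusted p = 0.046 by limma), above 0 in all 6 tumors and in an amplified region in PHx2F (0.59) and PHx4M (0.51). Among the regulators none passed in the spontaneous tumors. Of the 17 partners, 0 passed in the post-PHx tumors. In the spontaneous tumors Ptk2, the focal adhesion kinase, rose (0.18 ± 0.045, SE, adjusted p = 0.041) and Abi1, a subunit of the WAVE complex of actin control, fell (-0.19 ± 0.048, SE, adjusted p = 0.044), each in the same direction in all 6 tumors. All 3 calls were close to the threshold, and each gene leaned the same way in the other group without passing there. By limma, Nipbl was 0.23 in the spontaneous tumors (adjusted p = 0.085). Ptk2 was 0.11 (adjusted p = 0.19) and Abi1 -0.12 (adjusted p = 0.18) in the post-PHx tumors. Nipbl kept it in 6 of 22 alternatives (adjusted p 0.031 to 0.49), with its log2 ratio at 0.077 after normexp background correction, Abi1 in 6 (0.043 to 0.15) and Ptk2 in 9 (0.013 to 0.32).

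The median difference from liver was 0.022 and 0.019 over the regulators and 0.0011 and -0.021 over the partners, in the post-PHx and spontaneous tumors respectively. No gene of either list differed between the groups after adjustment. Other genes of the lists lay in called regions of single tumors. Dnmt3b, a DNA methyltransferase that sets marks on the cluster's promoters, read 0.54 in an amplified region of PHx4M. Cdh2, or N-cadherin, also on chromosome 18, lay in amplified regions in PHx1M (0.30) and PHx3M (0.80), where no protocadherin gene did. Wapal, which releases cohesin, and the kinase gene Ptk2b lay in the deleted chromosome 14 of Spon5F and read -0.14 and -0.40 there.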

How the data were processed

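DNA of 12 tumors and their matched non-tumor livers was compared on 2-colour Agilent arrays. The deposited files are scanner output written by Agilent Feature Extraction. Per the file headers, the deposited log10 ratio is red over green processed signal, and the deposited signal intensity of each channel had been background-subtracted and dye-normalized by the authors' software. Probe positions are those of mm8. The authors' own region calls were made with ADM-2 and were not used here.

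Deposited log10 ratios were converted to log2, spots that were controls or outliers were dropped, spots of a probe were averaged, and arrays were centred on the autosomal median. A gene was the mean of its probes. Regions were called in the manner of ADM-2 with the deposited errors as weights, requiring a score of 6, a level of 0.4 and 2 probes. This caller was tested on simulated regions. Genes were tested with limma 3.58.1 (R 4.3.3, Benjamini-Hochberg over all autosomal genes), tested on simulated data, and other steps used Python 3.11.15. P-values measure the spread between tumors. The arrays hold no counts, and the number of tumors limits precision.

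Samples were grouped by their titles. The protocadherin genes, the gene lists and the tests were chosen with earlier results of these data known. The text names all dispersed genes, the end genes of each run of the cluster, its 3 widest and 3 narrowest genes by SD, 5 genes on each side, and list genes that passed or lay in a called region. Other cluster genes were named, after their values were seen, as the ends of a range. Alternatives were normexp with an offset of 50, no or mode centring, other spot filters, medians, probes as units, slide, sex or replicate number as blocks, other caller settings and each tumor left out. No probe sequences are printed.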

Additional observations from a re-analysis of the deposited data

Results flagged for a closer look

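Of 68 group and measure combinations tested for a tumor far from the other 5 or 4 of its group (29 genes and 5 means), 3 were flagged, where chance flags about 1 in 20. Pcdhb2 in PHx2F stood apart at 0.83, the next tumor being PHx5M at 0.13. Pcdh15 in PHx2F stood apart at 0.082, with the other post-PHx tumors between -0.082 and -0.031. Pcdh21 in Spon5F stood apart at -0.43, with the other spontaneous tumors between -0.044 and 0.11. Pcdhb2 lay in the amplified region of PHx2F and Pcdh21 in the deleted region of Spon5F described above, while Pcdh15 lay in no called region. The causes were not tested.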

How the results depend on the processing

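The cluster was in amplified regions of PHx2F and Spon1M under every caller setting tried. With a filter of 0.25 in place of 0.4, Spon4F joined them, 1 tumor (Spon6F) had the cluster in a deleted region, and 68 pairs were amplified and 26 deleted. With a filter of 0.6, 0 pairs were deleted. Leaving out each tumor in turn left 1 to 2 tumors with the cluster amplified, 10 to 31 amplified pairs and 0 to 3 deleted pairs, without Spon1M and without Spon5F giving the lowest values of the pairs. With probes in place of genes, 2 protocadherin genes had a probe that passed in the spontaneous tumors, Pcdh9 and Pcdh21, both below liver. No other setting called a protocadherin gene, and leaving out tumors gave 0 calls in each comparison.

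Within slide 2 the difference of the cluster means was 0.26. Over all slides, leaving out each tumor gave -0.17 to 0.042 for the difference of the cluster means. The dispersed means then differed by -0.034 to 0.068. Cluster minus dispersed ran from -0.014 to 0.083 in post-PHx and from 0.073 to 0.23 in spontaneous tumors. Pcdhb16 turned to 0.16 within slide 2 and with the slide as a block, a difference that rests on the same tumors. Pcdhb8 ranged from -0.027 to 0.64 when tumors were left out and was -0.010 without PHx2F and Spon1M, a setting chosen after seeing the data.

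Counts over all genes moved more. Tumor over liver gave 3601 post-PHx and 3848 spontaneous calls with normexp, 1 and 4 with the slide as a block, 89 and 351 with genes of at least 2 probes, 1535 and 1972 with probes as units, 78 to 873 and 259 to 771 with a tumor left out, and 27 and 89 without PHx2F and Spon1M. The replicate block gave 0 protocadherin calls and a median of -0.067. Tumors that share a number are different mice, and the correlation of their deviations was -0.038 to 0.45, over 0.1 in 1 of 6 pairs, PHx6F and Spon6F.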
